A study of Mus musculus with 15 samples.

Results

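The cells described here are 3018 fibroblasts of the mouse aorta with RNA of the matrix genes Ccn5, Fmod, Sfrp2, Cpxm2 and Pdgfrl, out of 128019 filtered cells and 23448 cells that met a general fibroblast rule. They were chosen by their own measured values. A barcode needed 200 to 7000 detected genes and at most 25% mitochondrial UMIs (unique molecular identifiers, the unit of these counts), a UMI of at least 3 of the 5 general fibroblast genes Pdgfra, Lum, Col1a1, Col1a2 and Dcn, and no UMI of the leukocyte gene Ptprc or the endothelial gene Cdh5. It then needed at least 3 of the 5 matrix genes (set B), and more of these than of Cd248, Sema3c, Penk, Gfpt2 and Ccl11 (set A) and than of Gria4, Plcxd3, C7, Naaladl2 and Galnt17 (set C). Cells that met the same rule for set A (8012) or set C (4067) are the nearest fibroblasts and are used below only for comparison.

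The study asked how ageing and fisetin, a flavonoid given as a senolytic, change the RNA of aortic cells of male and female C57BL/6N mice. Young mice (labelled 3 months) and old mice (27 months) received vehicle or fisetin by gavage for 1 week, then none for 2 weeks, then treatment again for 1 week, and aortas were taken 1 to 2 weeks after the last dose. The 15 libraries were young vehicle (Y VEH, 2 female and 2 male), young fisetin (Y FIS, 2 and 2), old vehicle (O VEH, 2 and 1) and old fisetin (O FIS, 2 and 2). Whole aortas without perivascular fat were digested with collagenase II and elastase, viable cells were sorted by propidium iodide, and droplet 3′ libraries were made. Fisetin was given in the vehicle, a mixture of ethanol, polyethylene glycol and Phosal. The labels state pools of 3 mice per library, while the methods of the study name another age for the young mice and fewer old mice than such pools need. A library is the replicate throughout, named by group, sex and number (Y VEH F1).

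Libraries held 49964001 to 74587567 UMIs, and each gave 75 to 510 of the cells described (median 169) with 938504 to 4873223 UMIs in all. Their median depth was 6450 to 13013 UMIs per cell, lowest in Y FIS M1. Of the 3018 cells, 100 carried a barcode that was also a filtered cell of another library, and 2 barcodes lay in this set in more than 1 library. Xist was at 0 to 0.412 CPM (counts scaled to a common library total) in the 7 male libraries and at 417 to 533 in the 8 female ones, and Ddx3y at 67.7 to 89.2 in the male and 0 to 1.27 in the female ones. The doublet caller Scrublet marked 8 of the cells described, but it marked under 0.5% of the cells of Y FIS F2, O VEH F1 and O FIS M1 and so cannot be relied on there.

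Fibroblasts of the arterial adventitia make the collagens, proteoglycans and elastic fibre proteins that give the outer vessel wall its tensile strength. Small leucine-rich proteoglycans such as fibromodulin (Fmod) bind collagen and regulate the width and spacing of its fibrils, and secreted Frizzled-related proteins such as Sfrp2 bind Wnt ligands. Matricellular proteins such as Ccn5 sit in the matrix and modulate growth factor signals rather than bear load. In most tissues such cells also secrete complement components and chemokines and present peptides on major histocompatibility complex (MHC) class I.

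The genes of the rule describe the set and are no finding about it. Sfrp2 had a UMI in 93.5% of the cells, Pdgfrl, a protein related to the PDGF receptors, in 92.9%, Cpxm2, a carboxypeptidase-like secreted protein, in 89.6%, Fmod in 85.0% and Ccn5 in 83.8%. All 5 genes were present in 1786 cells, 4 in 797 and 3 in 435. The median CPM of Sfrp2 over libraries was 3390 in these cells, 567 in set C cells and 175 in set A cells. Ccn5 stood at 1101, 53.5 and 15.9 CPM in the same order, and Fmod at 573, 58.7 and 7.22. In cells with a UMI of Ptprc (median depth 7516 UMIs), which should lack these RNAs, a UMI was found for Sfrp2 in 7.52%, for Pdgfrl in 3.38%, for Cpxm2 in 3.09%, for Ccn5 in 2.66% and for Fmod in 2.25% of cells, the share that free RNA may give. The general fibroblast genes were present in 77.97% (Pdgfra) to 99.9% (Dcn) of the cells described. In Ptprc cells the same genes ran from 6.48% (Pdgfra) through 20.1% (Col1a2) to 59.4% (Dcn), so a UMI of Dcn alone says little.

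The set has no sharp edge. Of the cells, 33.4% also had 3 genes of set C and 23.8% had 4, and 47.7% of the fibroblasts with 3 or more set B genes (2755 cells) were kept out because they had as many or more genes of set A or C. Of all general fibroblasts, 8351 (35.6%) met none of the 3 rules, a number that includes those of the kept-out cells that met neither other rule. At the threshold, the 435 cells with exactly 3 set B genes had a median of 142 CPM of Fmod and 255 CPM of Ccn5, against 58.7 and 167 CPM in the 378 cells with 2 set B genes that outnumbered those of A and C. Both genes belong to set B, so this order follows largely from the rule and is no finding. Acta2, smooth muscle actin, ran the other way, at 1262 CPM in the cells just inside, 10608 CPM just outside and 330 CPM over the whole set.

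Genes that the rule did not use set these cells beside their neighbours. These differences are given without a test, because the cells were sorted into the sets by their RNA. CPM here is that of the counts summed over a library's cells, and a ratio is the median over 15 libraries of the log2 ratio with 1 CPM added to both sides. Against set A cells the highest ratios belonged to Pex5l, a peroxisomal receptor-related protein (5.33, 176 against 2.85 CPM), the cadherin Cdh18 (5.10, 67.8 against 1.11 CPM), the elastic fibre protein Mfap4 (4.91, 1956 against 62.6 CPM) and the secreted Angptl7 (4.76, 189 against 5.35 CPM). Hhip, a Hedgehog-binding protein, followed at 4.68 (185 against 5.25 CPM). The ratio was above 0 in all 15 libraries for each of them. Also among the leading 15 were Bmp4, a BMP ligand (3.89, 412 against 23.8 CPM), Ccn2, a matricellular protein and relative of Ccn5 (3.85, 1360 against 93.5 CPM), the transcription factor Pax1 (3.91, 123 against 5.78 CPM) and the matrix protein Smoc1 (4.22). At the other end stood the phospholipase Pla1a (-6.50, 2.26 against 282 CPM), the growth factor Fgf10 (-6.01, 0.73 against 143 CPM), the chemokine Cxcl13 (-5.60) and the peptidase Dpp4 (-4.90, 5.84 against 225 CPM), each lower in 15 of 15 libraries.

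Set C cells were closer. Angptl7 (4.42), Pax1 (2.90), Mfap4 (2.54, 1956 against 340 CPM), Ccn2 (2.28), the lymphangiogenic factor Vegfd (2.16, 691 against 154 CPM), the fibril-associated collagen Col12a1 (2.11) and the retinol carrier Rbp4 (2.03, 734 against 126 CPM) were higher than in set C cells in every library. The contractile genes Acta2 (2.44) and Tagln (2.23) were also among the leading 15. Like Acta2 above, Tagln was highest at the rule's edge. It stood at 810 CPM just inside, 5983 CPM just outside and 213 CPM over the whole set. The lowest ratios were those of Sntg1 (-3.84), Sdk1 (-3.70), the interferon-inducible Ifi205 (-3.04) and Ifi204 (-2.98), which belong to a family of near copies, the retinoic acid-forming enzyme Aldh1a3 (-2.97) and the BMP modulator Bmper (-2.59).

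Among matrix genes picked from lists after their values were seen, the collagen-binding proteoglycans Bgn (2047 CPM against 651 in set A and 1191 in set C cells), Omd (log2 ratios 2.52 and 1.71) and Prelp (1.61 and 1.14) and the syndecan Sdc1 (2.09 and 1.28) were higher than in both neighbours. The same held for tropoelastin, Eln (1009 CPM against 175 and 497), for Mgp, an inhibitor of calcification (2.90 and 1.36), and for the tendon transcription factor Mkx (2.81 and 1.57). The large proteoglycan Vcan (-1.86 and -1.04), the collagen Col5a3 (-2.12 and -1.03), the tenascin Tnxb (-1.56 and -1.09), complement C3 (-1.44 and -1.31) and the IGF carrier Igfbp3 (-2.13 and -2.48) were lower than in both. Hox genes, which keep a record of position along the body axis, were present mainly from the a and b clusters: the medians were 51.5 CPM for Hoxa3, 55.6 for Hoxa5 and 73.5 for Hoxa7. Hoxb8 stood at 23.6 CPM against 5.09 in set A and 7.40 in set C cells, while Hoxc9 stood at 10.4 against 23.7 and 27.2. No Hoxd gene had a median above 1.87 CPM.

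**Figure D1:**
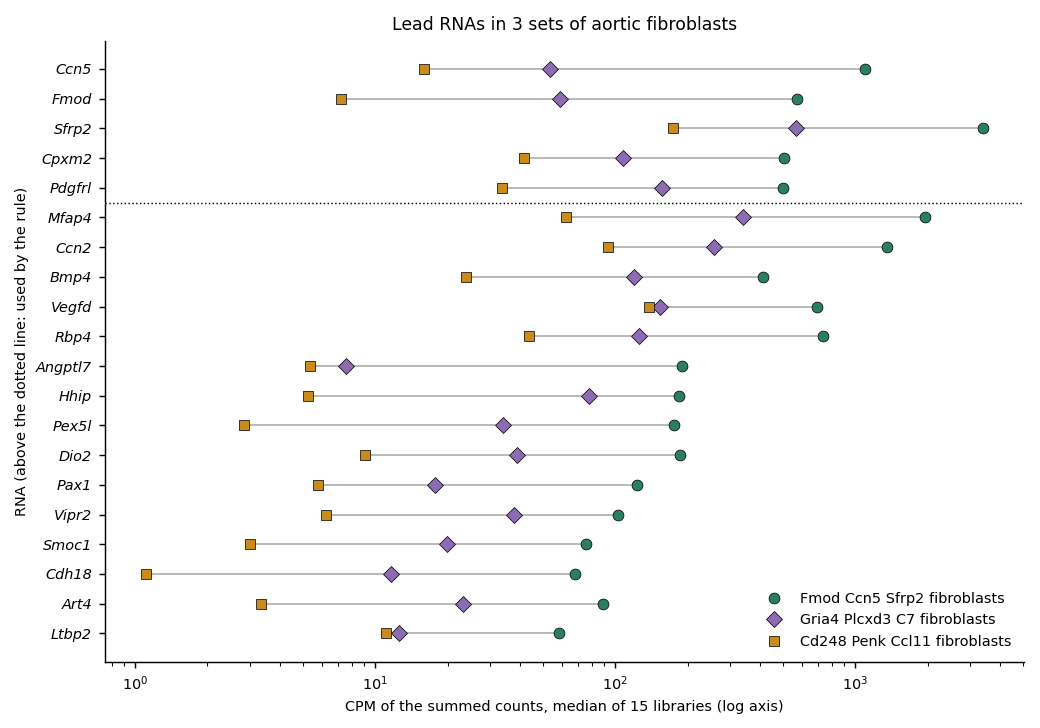
CPM of the summed counts, as the median of 15 libraries on a log axis, of lead RNAs in 3 sets of aortic fibroblasts. Circles are matrix fibroblasts, diamonds set C cells and squares set A cells. The 5 RNAs above the dotted line are the set B genes of the rule, and the rule did not use those below it. Every RNA shown is highest in the matrix fibroblasts, for example Mfap4 (1956 against 340 in set C and 62.6 in set A cells).

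The cells differed from one another most in Acta2, which had a UMI in 48.2% of them (29.6% to 72.8% by library). Its variance-to-mean ratio exceeded that of RNAs with a like mean by a median of 4.33 on the log2 scale, the largest of 5799 RNAs after thinning each cell to 2000 UMIs. Mgp (3.95), Tagln (3.67), the nuclear RNA Malat1 (3.62), the protease inhibitor Cst3 (3.24) and the matrix metalloproteinase Mmp3 (3.04) came next. Mmp3 had a UMI in 52.0% of the cells, from 33.6% to 64.8% by library. The share that free RNA may give was not measured for Acta2 or Mmp3. The proteoglycan Dcn (2.89, a gene of the rule), the actin-severing Gsn (2.36), the collagen-binding Sparc (2.22) and Sfrp2 (2.21, a gene of the rule) completed the first 10.

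The share of these cells among all filtered cells was 1.41%, 1.47%, 2.81% and 1.80% in Y VEH (F1, F2, M1, M2), 2.46%, 3.32%, 2.32% and 3.44% in Y FIS, 2.01%, 2.15% and 1.55% in O VEH (F1, F2, M1) and 1.72%, 1.07%, 5.10% and 2.13% in O FIS. O FIS held both the lowest library (F2, 95% exact binomial interval 0.840% to 1.33%, counting error only) and the highest (M1, 4.67% to 5.55%), so its range covered that of all other groups. The mean of the 4 Y VEH libraries was 1.87% ± 0.65 (SD) and that of the 4 Y FIS libraries 2.88% ± 0.58. The 3 O VEH libraries averaged 1.90% ± 0.31 and the 4 O FIS libraries 2.503% ± 1.78. Among the general fibroblasts the share averaged 10.96% ± 6.45 (Y VEH) and 13.6% ± 6.13 (Y FIS) in young mice, against 13.3% ± 1.21 (O VEH) and 17.6% ± 5.89 (O FIS) in old mice. In no comparison did either share pass an exact two-sided permutation test, but most of these tests could not have passed. With 3 O VEH libraries against 4 of Y VEH or O FIS, the libraries can be split in too few ways, whatever their shares. The 4 Y FIS and 4 Y VEH libraries were too few to pass after adjustment. These comparisons therefore decide nothing about a difference in share. Only old against young could have passed, and its exact p was 0.848 among all cells and 0.249 among general fibroblasts. The smallest p, 0.0857 for the share among all cells in Y FIS against Y VEH, became 0.686 after Benjamini-Hochberg adjustment over 8 tests. The share among all cells was 1.66% against 2.90% in these 2 groups with every cell thinned to 2000 UMIs. Several genes of the rule themselves differed with age or sex (below), so shares are not independent of those differences.

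Age gave the most differences in RNA. In summed counts per library, edgeR's quasi-likelihood test (adjusted p here is always its Benjamini-Hochberg value over all genes tested) called 307 of 11256 RNAs in old against young libraries over both treatments. A call needed an adjusted p under 0.05, a log2 change beyond 0.25 in size and a UMI in over 10% of the cells of either side. Higher with age were 195 RNAs (1.73% of those tested) and lower 112 (0.995%). In O VEH against Y VEH alone 44 were higher (0.391%) and 13 lower (0.115%), of which 55 were called in the same direction in the pooled comparison. These comparisons share their vehicle libraries. Removing O VEH F1, O FIS M1 or O VEH F2 left 175, 189 or 203 calls in the pooled comparison. The vehicle comparison held 13 without O VEH F1, 21 without O VEH F2, 26 without Y VEH F1, 34 without Y VEH M1 and 36 without Y VEH M2. Of 34 named RNAs called in the vehicle comparison 7 were called under every alternative in which they were tested (Efemp1, Ccbe1, Mme, C130026I21Rik, Sp100, Cdk8 and Ric3). After thinning Mme, C130026I21Rik and Ric3 did not pass the gene filter. In the pooled comparison it was 42 of 85 named RNAs, which include Acta2 and Tagln although neither was called there. The pooled values are therefore given below. Levels are normalised CPM (scaled by edgeR's TMM factors) as lowest, median and highest of the 8 young and the 7 old libraries. RNAs named for the size of their change were picked among those without overlap between the ages. For them the lack of overlap adds no support to the call.

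Several collagens and the collagen-binding Sparc fell with age. Col3a1, the chain of type III collagen, was at 2442, 3591 and 3912 in young and 1248, 1966 and 2269 in old libraries. No old library reached the lowest young one, and the log2 change was -0.84 ± 0.11 (SE, adjusted p = 0.000364). Sparc, which binds collagen and takes part in its assembly, went from 6260, 7051 and 8168 to 2811, 3900 and 4502 (-0.87 ± 0.09, adjusted p = 6.71e-05), again without overlap. The chains of type I collagen belong to the general fibroblast genes of the rule, so their levels are given as a description with no test. Col1a1 (chr11:94827050-94843868, GRCm39) was at 2770, 2989 and 3473 in young and 1136, 1695 and 2117 in old libraries, a log2 difference of -0.82, and Col1a2 differed by -0.64. The collagen chaperone Serpinh1 was at 1160, 1498 and 1986 in young and 737, 1046 and 1286 in old libraries, so the groups overlapped (-0.52 ± 0.12, adjusted p = 0.0218). Of 18 collagens outside the rule, Col3a1 included, 6 were called lower (Col3a1, Col5a1, Col6a1, Col6a2, Col6a6 and Col15a1) and 1 higher (Col8a1, a collagen of vessel walls, 1.03), with 15 of 18 estimates below 0 (beside 0.995% called lower and 1.73% higher over all RNAs tested). None of the 18 was called in O VEH against Y VEH alone. The median log2 change of the list was -0.40, beside -0.0010 over all RNAs tested. Of 24 genes of collagen processing and crosslinking, 2 were called lower (Serpinh1 and Sparc) and none higher, with a median of -0.15. The call of Serpinh1 was lost without O VEH F1 (adjusted p = 0.0596), O VEH M1 (0.0608) or O FIS M1 (0.0544), that of Col6a6 without O VEH F1 (0.0706), and that of Col8a1 without O VEH F2 (0.0659), O VEH M1 (0.0777) or O FIS M1 (0.0627).

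Col3a1 and Sparc also fell in the neighbouring cells. Col3a1 changed by -0.70 in set A cells (adjusted p = 0.0176) and by -0.88 in set C cells (adjusted p = 0.00389), and Sparc by -0.67 and -0.81 (adjusted p = 0.00189 and 0.00411). The difference between the age changes of matrix fibroblasts and set A cells was -0.16 ± 0.14 for Col3a1 and -0.20 ± 0.12 for Sparc, and neither passed the test. In the vehicle mice alone Sparc was called (-0.79, adjusted p = 0.014) but not without O VEH F1 or O VEH F2, and Col3a1 missed the threshold (-0.67, adjusted p = 0.0808).

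Other matrix genes rose. Efemp1, which encodes fibulin-3, an extracellular glycoprotein of elastic fibres and basement membranes (chr11:28803150-28876825), was at 104, 121 and 155 in young and 288, 362 and 443 in old libraries. Every old library lay above every young one by a wide margin, with a log2 change of 1.55 ± 0.10 (adjusted p = 2.63e-07) that was called under all alternatives tried. A UMI of Efemp1 was found in 41.6% of Y VEH and 39.7% of Y FIS cells and in 76.2% of O VEH and 76.4% of O FIS cells. The share that free RNA may give was not measured for Efemp1. Comp, a pentameric protein that binds collagen in cartilage and tendon, stood at 74.1, 140 and 189 in young and 186, 230 and 499 in old libraries (1.09 ± 0.20, adjusted p = 0.00587), so 1 old library, O FIS F1, fell within the young range. Mmp3, which degrades proteoglycans and other matrix proteins, was at 617, 802 and 2063 against 1441, 1812 and 2606. Its groups overlapped through 2 young male libraries, Y VEH M1 (2063) and Y FIS M2 (1710), and the log2 change was 0.99 ± 0.23 (adjusted p = 0.0225). Timp3, an inhibitor of metalloproteinases held in the matrix, rose by 0.50 (adjusted p = 0.0171), and the metalloproteinase Mmp11 by 0.74, whereas Htra1, a secreted serine protease, fell by 0.41. The calls of Mmp3 were lost without Y VEH F1 (adjusted p = 0.0511), Y FIS F1 (0.0524), O VEH F1 (0.0699) or O VEH F2 (0.0586), those of Timp3 without O VEH F2 (0.0567) or O FIS M1 (0.0504), and those of Htra1 without O VEH F1 (0.0556) or O VEH F2 (0.0834).

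Over lists, 3 of 29 proteases and inhibitors were called higher (Mmp3, Mmp11, Timp3) and 1 lower, with a median of -0.079. Beside this and the next counts, 1.73% of all RNAs tested were called higher and 0.995% lower. Of 16 elastic fibre genes, Efemp1 was called higher and the TGF-beta-binding Ltbp1 lower (-0.41, lost without O VEH F1 at adjusted p = 0.059), with a median of 0.096. Of 18 proteoglycans, Prelp (0.31) and the glypican Gpc6 (0.38) were called higher, with a median of -0.05, and the call of Prelp was lost without O VEH F1 (0.0764), O VEH M1 (0.0703) or O FIS M1 (0.0526). Comp and Vit (0.61) were called higher among 28 matricellular and adhesive proteins. Among the rule's own genes the log2 differences with age were 0.52 for Ccn5, 0.39 for Cpxm2 and -0.35 for Pdgfrl (set B), -0.75 for Sema3c (set A) and 0.88 for Gria4 (set C). These 5 genes, Col1a1 and Col1a2 are among the 307 calls, but as the cells were chosen by them they are no independent test.

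**Figure D2:**
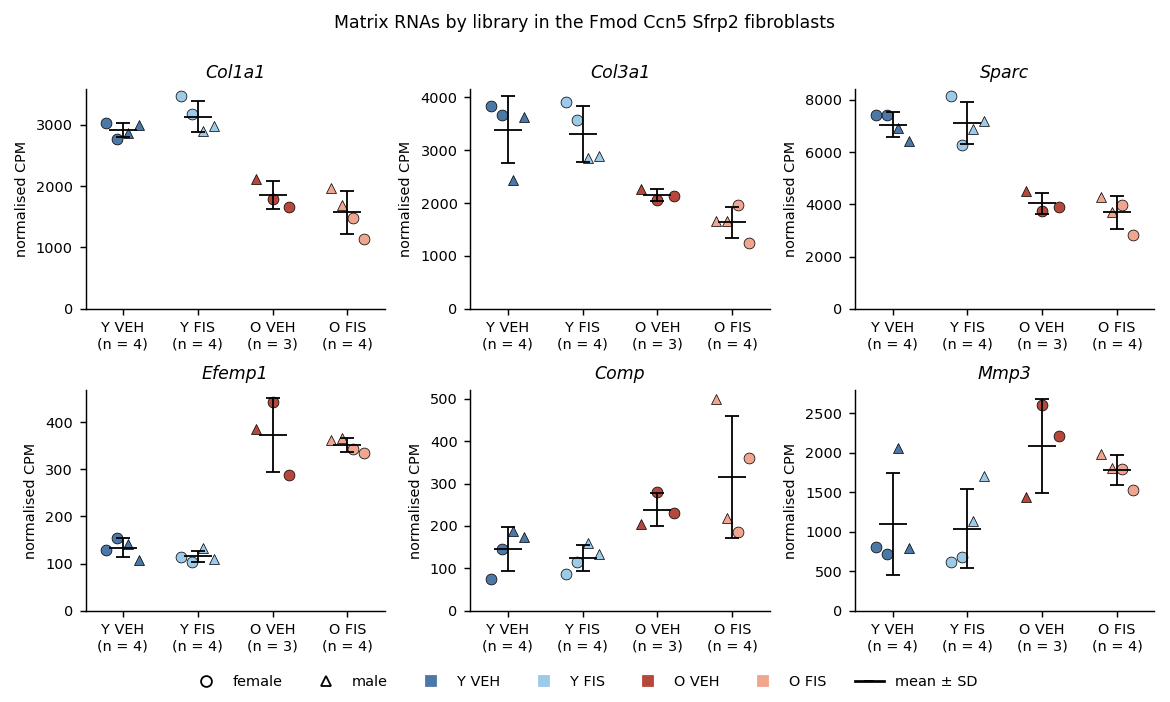
Normalised CPM of Col1a1, Col3a1, Sparc, Efemp1, Comp and Mmp3 in the matrix fibroblasts of each library, by group. Circles are female and triangles male libraries, and bars give the mean ± SD. The 7 old libraries lie below the 8 young ones for Col1a1, Col3a1 and Sparc and above them for Efemp1 (288 to 443 against 104 to 155), while Comp and Mmp3 overlap.

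Among signalling genes, the Wnt agonist Rspo1 rose from 10.2, 16.4 and 46.3 in young to 40.5, 58.6 and 109 in old libraries. The ranges overlapped through Y VEH F2 alone (46.3), and the log2 change was 1.72 ± 0.19 (adjusted p = 0.000116). It was the strongest of 31 Wnt genes, of which 2 were called higher (with the receptor Fzd1, 0.35) and none lower, with a median of 0.098. Over all RNAs tested 1.73% were called higher and 0.995% lower. Fzd1 was not called without any 1 of 12 libraries, for example at adjusted p = 0.14 without O VEH F1. Ccbe1, a secreted protein needed for lymphatic vessel growth, stood at 93.7, 110 and 132 against 178, 303 and 421 (1.46 ± 0.14, adjusted p = 1.89e-05), with no overlap. Mme, the cell-surface peptidase neprilysin that cleaves vasoactive peptides, fell from 17.8, 27.5 and 40.7 to 2.65, 7.34 and 13.9 (-2.04 ± 0.22, adjusted p = 6.71e-05), with every old library below every young one. The G1 cyclin Ccnd2 fell from 168, 193 and 243 to 79.5, 99.1 and 118 (-1.03 ± 0.10, adjusted p = 2.17e-05), also without overlap.

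The transcription factor Runx2, best known for bone formation, was low throughout, at 7.09, 9.94 and 11.95 in young and 15.7, 19.2 and 28.2 in old libraries (1.05 ± 0.14, adjusted p = 0.00053). Of 30 fibroblast transcription factors, Runx2 and Meox2 (0.97, lost without O VEH F1 at adjusted p = 0.0544) were called higher and none lower. Among 36 TGF-beta and BMP genes the BMP antagonist Chrdl1 was higher (0.74) and the receptor Bmpr1b lower (-0.93), so 1 of 36 in each direction, beside 1.73% higher and 0.995% lower over all RNAs tested. Among 12 genes of the IGF axis 1 was lower (Htra1, above) and the carrier Igfbp4 was higher (0.32), a call that was lost without O VEH F1 (0.0905), O VEH M1 (0.0615), O FIS M2 (0.0663), Y VEH F2 (0.0515) or Y FIS M2 (0.0535). None of 16 PDGF and FGF ligands and receptors was called. Ric3, a chaperone of acetylcholine receptors, rose from a range of 0.919 to 5.79 in young to 9.27 to 18.5 in old libraries (2.01 ± 0.24, adjusted p = 0.000209).

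Of 17 MHC class I and antigen-processing genes, 29 interferon-induced genes and 20 complement and chemokine genes tested, 5, 6 and 6 were called higher with age and none lower, beside 1.73% higher and 0.995% lower over all RNAs tested. In O VEH against Y VEH alone 1 (H2-K1), 2 (Rtp4 and Ly6e) and 0 of them were called, beside 0.391% higher. The heavy chain of MHC class I, H2-K1, was at 346, 414 and 469 in young and 595, 659 and 963 in old libraries (0.85 ± 0.11, adjusted p = 0.000308), and its partner B2m at 478, 528 and 615 against 595, 707 and 1018 (0.50 ± 0.10, adjusted p = 0.00916). H2-K1 did not overlap between the ages, and B2m did so through O VEH M1 (595) and Y VEH F2 (615). All 17 MHC class I and antigen-processing genes tested had estimates above 0, with a median of 0.39. Of these, 5 were called (H2-K1, H2-D1, B2m, Psmb8 and Psmb9) and none was called lower. H2 genes are near copies of one another, so their counts could have been split between them and are uncertain. Psmb8 and Psmb9, subunits of the immunoproteasome, lost their calls without O VEH F1 (adjusted p = 0.0795 and 0.087), and Psmb9 also without Y FIS F1 (0.0512), Y FIS M2 (0.0527) or O FIS M1 (0.0544).

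Of 29 interferon-induced genes, 29 had estimates above 0 in old against young libraries, with a median of 0.59, and 6 were called higher. Rtp4, an interferon-induced protein with antiviral activity, stood at 6.51, 13.97 and 20.9 in young and 18.0, 28.5 and 41.1 in old libraries (0.92 ± 0.17, adjusted p = 0.00746). Bst2, or tetherin, which holds budding virions at the cell surface, stood at 130, 163 and 205 against 182, 231 and 324 (0.52 ± 0.11, adjusted p = 0.017). Both overlapped between the ages. Ly6e rose by 0.60, and Ifitm3, which blocks viral entry, by 0.32 ± 0.08 (adjusted p = 0.0415). Bst2 lost its call without O VEH F1 (0.0556), and Ifitm3 and Iigp1 (1.10) each lost theirs under 14 alternatives, with the largest p without O VEH F1 (0.121 for both). Gm4951 (0.87) lost its call without O VEH F1 (0.0917) and without any 1 of 5 other libraries.

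To show the sequence context of these genes, promoters from RefSeq (GRCm38.p6, 250 bases before to 50 after the annotated start) were searched on both strands for GAAA, any 2 bases and GAAA again, the core of the interferon-stimulated response element bound by the STAT and IRF factors. The window of B2m (chr2:122147437-122147736, + strand) held 1 match, starting 139 bases before the gene's start. That of Bst2 (chr8:71537423-71537722, - strand) held 2 overlapping matches, starting 130 and 124 bases before it. Capitals mark the matches, and each line runs 5′ to 3′ along the gene's strand.

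B2m: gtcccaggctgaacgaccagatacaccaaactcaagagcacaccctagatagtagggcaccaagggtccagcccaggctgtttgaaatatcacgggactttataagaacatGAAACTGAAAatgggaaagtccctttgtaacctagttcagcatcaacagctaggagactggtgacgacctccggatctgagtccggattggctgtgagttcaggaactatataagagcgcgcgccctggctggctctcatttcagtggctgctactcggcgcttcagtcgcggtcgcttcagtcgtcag

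Bst2: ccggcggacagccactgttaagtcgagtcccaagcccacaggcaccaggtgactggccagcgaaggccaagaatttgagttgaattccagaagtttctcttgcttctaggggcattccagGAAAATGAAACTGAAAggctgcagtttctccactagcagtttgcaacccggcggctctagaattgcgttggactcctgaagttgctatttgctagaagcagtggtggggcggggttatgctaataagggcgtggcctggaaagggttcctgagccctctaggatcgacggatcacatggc

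Promoters on chr18 were left out of the counts that follow, and each gene with a promoter counts once. A match was found in 3.99% of 27025 genes and in 3.70% of the 8820 tested genes. It was found in 9.66% of 145 genes called higher with age (14) and in 2.22% of 90 called lower (2). Among the interferon-induced genes 15 of 22 (68.2%) held it, as did 4 of 16 of the MHC class I list (25%). Of the 11 called genes of both lists, 7 had a promoter among those counted and 3 held a match (B2m, Bst2 and Ifitm3). The matches of Ifitm3 lay after the start. These letters describe the windows and are no evidence that a factor binds there in these cells.

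Among the complement and chemokine genes, the central complement component C3 was at 514, 852 and 1020 in young and 1069, 1622 and 2453 in old libraries (0.92 ± 0.19, adjusted p = 0.0122), without overlap. Cxcl12, which holds leukocytes and progenitor cells near stromal cells, was at 359, 446 and 469 against 512, 620 and 921 (0.73 ± 0.12, adjusted p = 0.00322), also without overlap. Of 20 genes, 6 were called higher (C3, Cxcl12, C2 at 0.73, C4b at 0.86, Cfb at 0.49 and Ccl19 at 0.43) and none lower, with a median of 0.37. C4b lost its call without O VEH F1 (0.0757) or O FIS M1 (0.0526), and Ccl19 without O VEH F1 (0.0502). In set C cells Cxcl12 rose by 0.97 (adjusted p = 0.00852), and H2-K1 rose by 0.86 in set A cells (adjusted p = 0.00812) and by 0.96 in set C cells (adjusted p = 0.00119). The age changes of Cxcl12, C3 and H2-K1 did not differ between matrix fibroblasts and either neighbour beyond the test's threshold.

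**Figure D3:**
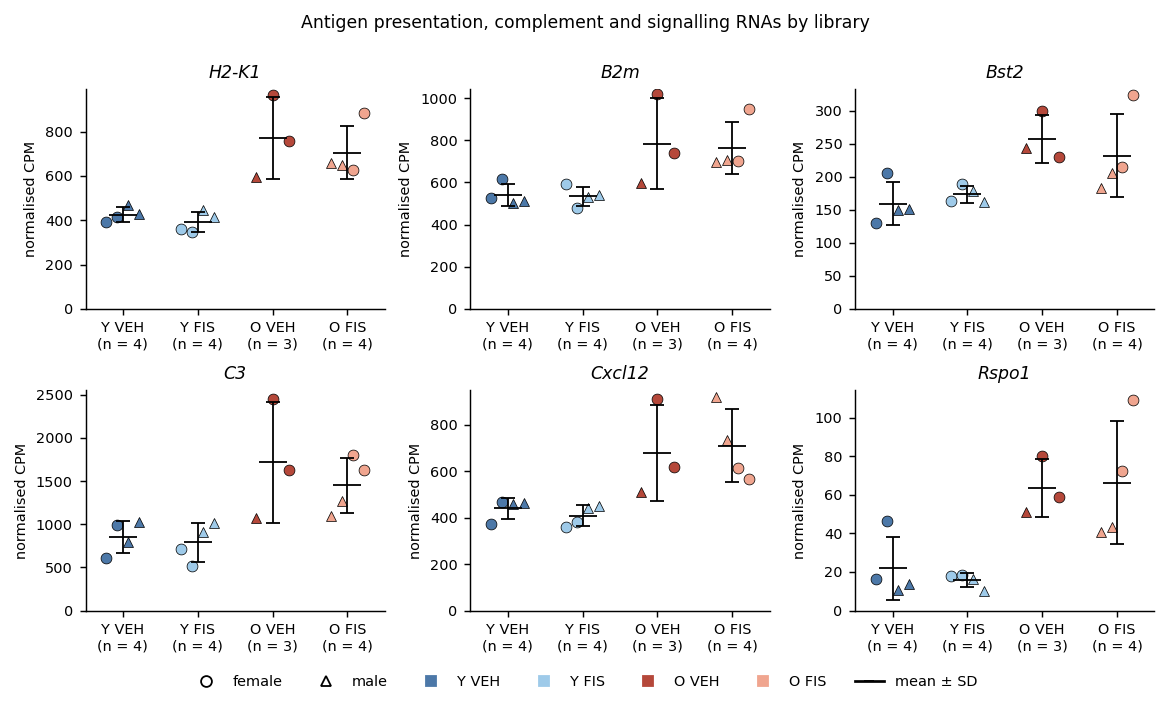
Normalised CPM of H2-K1, B2m, Bst2, C3, Cxcl12 and Rspo1 in the matrix fibroblasts of each library, by group, with the mean ± SD. Circles are female and triangles male libraries. H2-K1, C3 and Cxcl12 separate the 8 young from the 7 old libraries, and the O FIS libraries (1099 to 1804 for C3) lie within the O VEH range (1069 to 2453).

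Of 16 senescence and senescence-associated secretory genes tested, 2 were called higher with age (beside 1.73% of all RNAs tested) and none lower, with a median of 0.095, and none was called in O VEH against Y VEH alone. These were Cxcl12 (0.73) and S100a9. Cdkn1a, the cell cycle inhibitor p21, changed by -0.33 ± 0.23 (adjusted p = 0.520). S100a9, a calcium-binding protein abundant in neutrophils, was at 0 to 18.2 in young and 10.4 to 42.4 in old libraries (2.76, lost without O VEH F1 at adjusted p = 0.0591). It is 1 of 2 neutrophil markers tested of 7, both called higher. The summed CPM of all 7 ran from 4.79 to 32.1 in Y VEH, 0.412 to 8.96 in Y FIS, 32.3 to 88.7 in O VEH and 16.03 to 55.4 in O FIS, and their part in the result was not tested. Of other cells' markers, Mbp of Schwann cells was called higher with age (0.98) and Ndufa4l2 of pericytes lower (-0.51). Without a call, both B cell markers tested of 7 had estimates above 0 (median 1.26), and the summed CPM of the 7 ran from 74.9 to 143 in Y VEH, 21.6 to 89.2 in Y FIS, 107 to 167 in O VEH and 73.7 to 843 in O FIS. The 4 erythrocyte markers tested of 5 also lay above 0 (median 0.61, sums of 41.5 to 1366 in Y VEH, 20.4 to 648 in Y FIS, 71.8 to 294 in O VEH and 83.6 to 5360 in O FIS). Of 6 mesothelial markers tested of 9, 5 lay below 0 (median -0.81, sums of up to 343 CPM in Y VEH). Their part in the age differences, those of the immune lists included, was not tested.

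No contractile gene was called with age. Acta2 was at 2542, 106, 1170 and 1110 in Y VEH (F1, F2, M1, M2), at 151, 2480, 600 and 300 in Y FIS, at 124, 105 and 502 in O VEH (F1, F2, M1) and at 323, 108, 252 and 409 in O FIS. Y VEH F1 and Y FIS F2 stood far above the rest, and the groups overlapped (-2.04 ± 0.65, adjusted p = 0.0994). Of 10 myofibroblast and contractile genes, 8 had estimates below 0, with a median of -1.37, and none was called. Of the 10 smooth muscle markers tested, 9 had estimates below 0, with none called and a median of -1.88. Tagln was one of them (-1.85 ± 0.71, adjusted p = 0.180), and its estimate turned to 0.17 after thinning to 2000 UMIs. Their summed CPM was 253 to 4802 in Y VEH, 406 to 5246 in Y FIS, 317 to 1125 in O VEH and 215 to 908 in O FIS, and their part in the age differences was not tested. Without the 2 libraries richest in Acta2 (chosen after seeing the data), 278 RNAs were called with age, 169 higher and 109 lower.

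A few further RNAs changed strongly. The RNA listed as C130026I21Rik, whose near copies make its counts uncertain, was at 0 to 1.70 in the 8 young and 8.52 to 31.0 in the 7 old libraries. Sp100, a nuclear body protein, rose by 0.99 and the interferon-inducible Ifi203 by 1.31. AW112010, an interferon-responsive RNA, rose by 1.35 and Ass1, which makes argininosuccinate from citrulline, by 1.17. A list of 7 RNAs came from earlier work on these data, which found them lower with age across the aorta. Its counts were thus largely set in advance and are no independent evidence. Of the 7 RNAs, 5 were called lower (Camk1d at -0.98, Gm15564 at -0.86, Cmss1 at -0.85, Cdk8 at -0.84 and Lars2 at -0.76) and Neat1 higher (0.38). Over all RNAs tested 0.995% were called lower and 1.73% higher. Gm15564 lost its call without O VEH F2 (0.0627), O VEH M1 (0.0722) or O FIS M1 (0.0621), and Neat1 lost its call without any 1 of 11 libraries, with the largest p without O VEH F2 (0.138). None of 22 immediate early and dissociation genes was called, with 21 estimates below 0 and a median of -0.31.

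To find which age differences were particular to the matrix fibroblasts, the age change was compared with that of the neighbouring cells in the same libraries. Against set A cells, 10 of 13074 RNAs (0.0765%) differed in their age change, and against set C cells 11 of 12322 (0.0893%). Efemp1, Rspo1, Mme and Dnm1 were called in both. In CPM of the summed counts, Efemp1 went from a median of 118 in young to 363 in old matrix fibroblasts, from 591 to 539 in set A cells and from 253 to 318 in set C cells. The age change exceeded that in set A cells by 1.67 ± 0.13 on the log2 scale (adjusted p = 4.46e-06) and that in set C cells by 1.03 ± 0.14 (adjusted p = 0.00254), under every alternative tried. Rspo1 went from 16.2 to 59.8 CPM, against 40.8 to 31.9 in set A and 54.5 to 82.1 in set C cells, a difference of 1.89 ± 0.31 (adjusted p = 0.0177) and 1.56 ± 0.21 (adjusted p = 0.00254). Mme went from 27.0 to 7.50 CPM, against 16.8 to 24.0 in set A and 13.7 to 12.03 in set C cells (-2.37 ± 0.25, adjusted p = 0.000169, and -1.94 ± 0.27, adjusted p = 0.00277).

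By these medians, young matrix fibroblasts held less Efemp1 and Rspo1 than either neighbour, and old ones lay between set A and set C cells for both genes. Ric3 rose more than in set A cells by 1.83 ± 0.27 (adjusted p = 0.00971). It was called under the 18 alternatives in which it was tested, and after thinning it did not pass the gene filter. The other RNAs with a higher age change than in set A cells were Zfp462 (0.81), Ifi203 (1.05) and Dnm1 (0.69). Rasl11a (-1.17), Sntb1 (-2.10) and the cell cycle kinase Cdk6 (-1.48) had a lower one. Against set C cells Ebf2 (0.96), Negr1 (0.87), Dnm1 (0.80), Arhgap20 (0.71) and Dpep1 (0.56) were higher, and Prkg1 (-0.79) and Gm56906 (-0.71) lower. Such a difference can lie partly or mainly in the neighbour. By medians, Ebf2 fell from 483 to 357 CPM in set C cells and rose from 102 to 137 in matrix fibroblasts. Rasl11a went from 6.14 to 15.9 CPM in set A cells and from 29.3 to 28.9 in matrix fibroblasts. Ifi203 went from 91.8 to 130 CPM in set A cells and from 18.2 to 52.2 in matrix fibroblasts. Cpxm2 (-0.74) is the other of the 11, but as a gene of the rule it is no independent test. After thinning to 2000 UMIs, 1 of the 10 calls against set A cells was kept (Efemp1) and 3 of the 11 against set C cells (Efemp1, Ebf2 and Cpxm2). Mme was then no longer called against either neighbour (adjusted p = 0.423 and 0.312). Rspo1 remained under the adjusted threshold (0.00136 and 0.000643) but was then found in too few cells to be called. Against set A cells the call of Rspo1 was lost without Y VEH F1 (0.0609), Y VEH M2 (0.0566), Y FIS M1 (0.0514) or O VEH F2 (0.0697). Zfp462 lost its call only after thinning (0.591), whereas Ifi203, Rasl11a, Sntb1, Cdk6 and Dnm1 lost theirs under 3 to 12 of the alternatives, each of them without Y VEH F1 (0.056 to 0.0981). Against set C cells Ebf2 was lost without O VEH F1 (0.0799) or O FIS M2 (0.0577), and Dnm1, Gm56906, Negr1, Arhgap20 and Prkg1 under 5 to 13 alternatives. The number of calls against set A cells was 4 without Y VEH F1, 16 without Y VEH M1, 20 without O VEH M1 and 27 without O FIS F1. Against set C cells it was 5 without Y VEH M2, O VEH F1 or O FIS M2 and 7 without Y VEH F1 or O FIS F2.

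**Figure D4:**
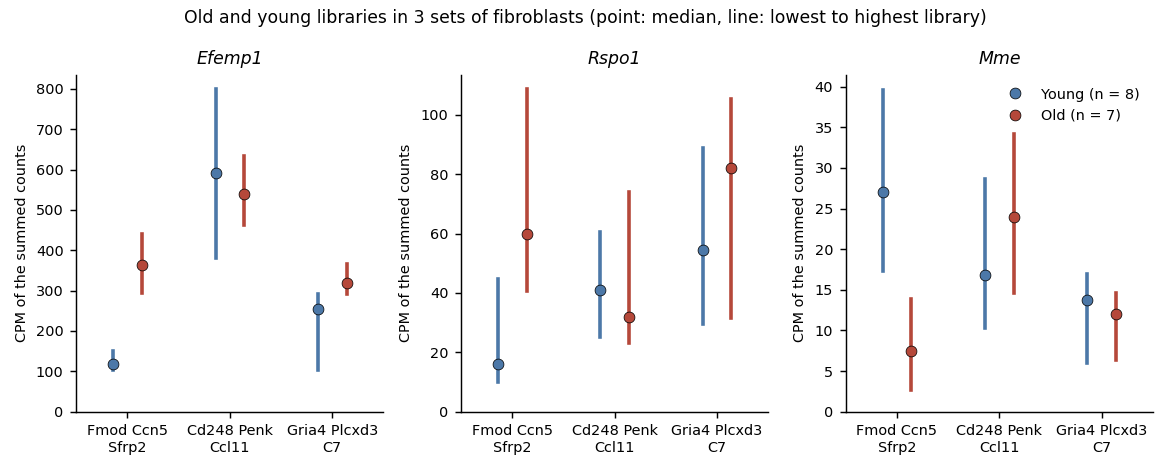
CPM of the summed counts of Efemp1, Rspo1 and Mme in young and old libraries for matrix fibroblasts (set B), set A and set C cells. Points are medians and bars run from the lowest to the highest of 8 young or 7 old libraries. The median of Efemp1 rises from 118 to 363 in the matrix fibroblasts, against 591 to 539 in set A and 253 to 318 in set C cells. In set A cells the median of each gene moves the other way from that in matrix fibroblasts, with overlapping ranges of young and old libraries.

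Sex separated the cells further. Of 11256 RNAs, 96 were higher (0.853%) and 70 lower (0.622%) in male than in female libraries, counting Xist and the Y-linked RNAs. Gli1, a transcription factor and target of Hedgehog signals, was at 7.22, 15.6 and 22.8 in the 8 female and 25.7, 27.8 and 35.4 in the 7 male libraries (0.89, adjusted p = 0.00137). Rtn4rl1, a Nogo receptor homologue, was at 1.63, 5.19 and 7.91 against 16.5, 20.2 and 29.2 (2.26, adjusted p = 6.55e-07). Neither gene overlapped between the sexes. The RNAs given here without overlap were named for it or after their values were seen, so it adds no support to the calls. Higher in males without overlap were also Gpld1 (1.47), the organic anion transporter Slco2b1 (1.34), Lrrn1 (1.55) and the matrix protein Vit (1.22). For 2 genes of the rule, which are among the calls but are given here as a description, every male library also lay above every female one. C7, a late complement component of set C, was at 164, 340 and 444 in female and 790, 1274 and 1646 in male libraries, and Fmod of set B at 442, 502 and 577 against 655, 743 and 964.

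Lower in males were Gpm6b, a membrane proteolipid (94.4, 143 and 179 in female against 56.4, 65.6 and 80.2 in male libraries, -1.02, adjusted p = 2.27e-05), and the vasodilator peptide Adm (190, 214 and 269 against 59.5, 132 and 173, -0.99, adjusted p = 0.0019), both without overlap. So were the X-linked Eif2s3x (-0.80), Kdm6a (-0.77) and Kdm5c (-0.70), which escape X inactivation. By list, 5 of 22 immediate early and dissociation genes were higher in males and none lower (Junb at 0.78, Egr1 at 0.42, Ier2 at 1.10, Nr4a1 at 1.09 and Zfp36 at 0.74). Beside this and the next counts, 0.853% of all RNAs tested were called higher and 0.622% lower. Of 18 proteoglycans, 3 were higher (Omd at 0.54, Ecm2 at 0.47 and Sdc1 at 0.55), Igfbp5 was higher (0.74) and Igf1 (-0.52) and Igfbp3 (-1.66) lower, and the crosslinking enzymes Plod2 (-0.75) and Lox (-0.40) were lower. No collagen of 18 and no interferon-induced gene of 29 was called. The 6 mesothelial markers tested of 9 all had estimates below 0 in males (median -2.77, none called), with sums of up to 343 CPM in Y VEH, and the 7 macrophage markers tested of 10 had a median of -1.35. Both Schwann cell markers tested of 8 were called lower (S100b at -0.94 and Mbp at -0.76), and 1 of 6 pericyte markers tested higher (Kcnj8 at 0.73). The part of these cells in the result was not tested. Of the 16 list genes called between the sexes and named here, 5 kept their call under every alternative (Junb, Ier2, Igfbp5, Plod2 and Kcnj8). Zfp36, Omd, Sdc1, Igfbp3 and Mbp lost theirs under 13 to 17 alternatives, with a largest adjusted p of 0.103, 0.138, 0.629, 0.607 and 0.202. Ecm2 lost it under 4 (up to 0.16), Lox under 2 (up to 0.0554), Nr4a1 without O FIS M1 (0.0524), and Egr1 (0.192), Igf1 (0.0754) and S100b after thinning, as did Kdm5c (0.344) and Lrrn1. Leaving out O FIS M1 or Y FIS M2 left 104 or 109 calls, and 274 were called, 137 in each direction, without the 2 libraries richest in Acta2.

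**Figure D5:**
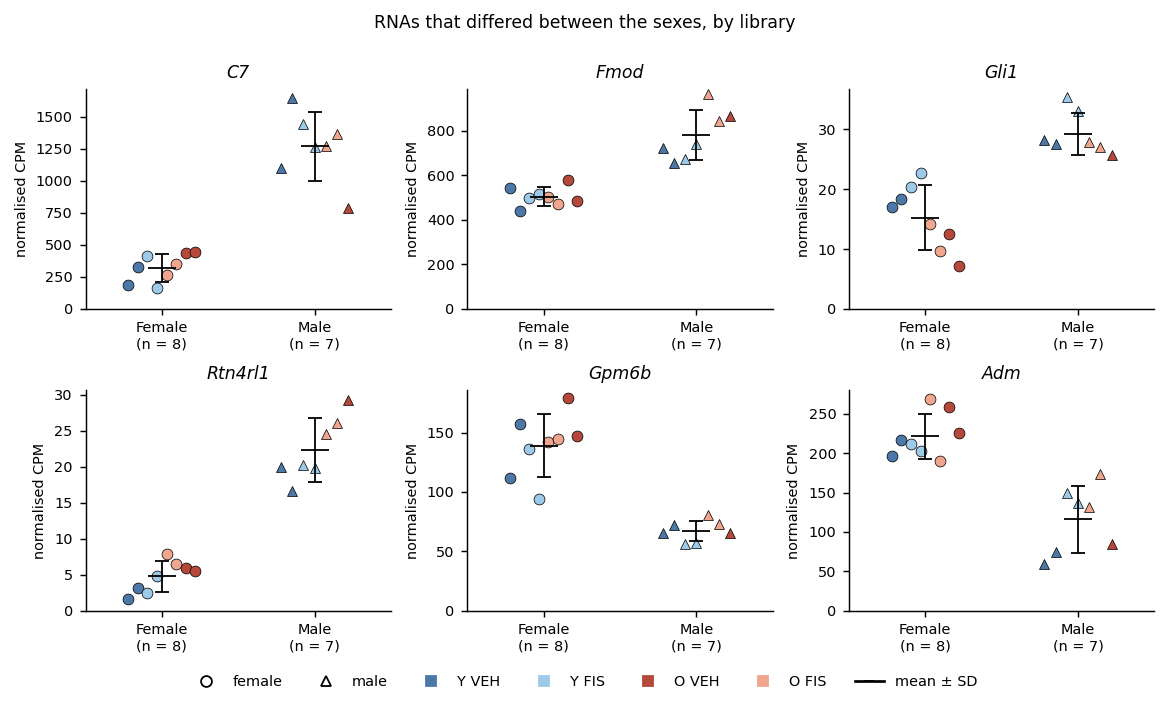
Normalised CPM of C7, Fmod, Gli1, Rtn4rl1, Gpm6b and Adm in the matrix fibroblasts of each library, by sex, with the mean ± SD of each sex. Circles are female and triangles male libraries. In each of the 6 panels the 8 female and 7 male libraries do not overlap, with C7 at 164 to 444 in female and 790 to 1646 in male libraries. C7 and Fmod are genes of the rule. The other RNAs were named for their lack of overlap or after their values were seen, so that lack is no separate result.

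With fisetin none of 11256 RNAs was called in O FIS against O VEH (0%), none in Y FIS against Y VEH (0%), and none in the difference between these effects (0%), by edgeR and by DESeq2. With no gene filter edgeR called 43, 46 and 41 of 22598, and with only the libraries of O FIS and O VEH 1 was called. At an unadjusted p under 0.05 there were 394, 439 and 397 of the 11256 RNAs. Each count lies below the share of 0.05 that evenly spread p-values would give. In old mice Efemp1 changed by -0.086 ± 0.14, Rspo1 by 0.12 ± 0.25, Sparc by -0.14 ± 0.13, H2-K1 by -0.13 ± 0.16, C3 by -0.23 ± 0.27 and Cxcl12 by 0.015 ± 0.18 (log2, SE). Larger estimates relative to their errors were those of Col3a1 (-0.37 ± 0.16) and Mme (0.89 ± 0.39), with unadjusted p of 0.0318 and 0.0367 from edgeR's model of all 15 libraries and adjusted p of 1.00. The interferon-induced genes had 24 of 29 estimates below 0 in old mice given fisetin (median -0.19) and 25 of 29 above 0 in young mice (median 0.31), without a call in either. Markers of other cells moved in the same comparisons, also without a call. In O FIS against O VEH the 4 erythrocyte markers tested of 5 had estimates above 0 (median 2.88, sums of 83.6 to 5360 CPM against 71.8 to 294), and the 6 mesothelial markers tested lay below 0 (median -1.32). In Y FIS against Y VEH the 9 endothelial markers tested of 10 lay above 0 (median 0.81, sums of 362 to 490 against 235 to 399 CPM). The 7 macrophage markers (median -1.98) and the 6 mesothelial markers (median -2.84) lay below 0. Macrophage sums were 11.9 to 112 CPM (median 60.7) in Y FIS and 71.1 to 1039 (median 86.5) in Y VEH. Mesothelial sums were 3.06 to 46.2 (median 19.2) and 3.26 to 343 (median 51.1). Their part in the fisetin estimates was not tested. With 3 or 4 libraries a group, the errors above bound what could be seen.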

How the data were processed

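Single-cell RNA of digested mouse aortas was measured in 15 libraries. The deposited matrices hold unnormalised UMI counts for each gene and barcode, which the submitters' processing notes tie to Cell Ranger 8.0.1, Seurat 5.2.0 and GRCm39. No column belonged to another sample (0). Cells were kept at 200 to 7000 genes and at most 25% mitochondrial UMIs, and chosen by the rule in the text. The members and the gene lists were chosen with earlier results of these data known. Counts of the chosen cells were summed per library (75 to 510 cells, at least 10 required) and tested with edgeR 4.0.16 (quasi-likelihood, TMM scaling, Benjamini-Hochberg adjustment, R 4.3.3) in 1 model of all 15 libraries with group and sex. Age changes in 2 cell sets were compared on the same libraries with library as a pairing term. Shares were compared by exact permutation tests (scipy 1.17.1). Cells were read and doublets sought with scanpy 1.11.5. The edgeR test of old against young was also run on simulated counts with known changes, and the other steps were not tested in this way.

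Called RNAs had an adjusted p under 0.05, a log2 change over 0.25 and a UMI in over 10% of cells of either side. Named RNAs were the 12 largest called changes in each direction without overlap between the sides (vehicle age, pooled age and sex), called list genes with the 2 most abundant of each list, up to 6 in each direction elsewhere, the 15 highest and 8 lowest ratios to each neighbour among RNAs in over 25% of cells, the 10 most variable RNAs and the genes of the rule. List genes named for their ratio to the neighbours, or for sex, outside that rule were chosen after their values were seen. Alternatives were DESeq2 1.42.0, other scaling, no gene filter, other model terms, a replicate block, other thresholds of the rule, thinning to 2000 UMIs, doublet removal and leaving out libraries. P-values measure the spread between libraries of pooled mice. Intervals are exact Clopper-Pearson at 95%.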

Additional observations from a re-analysis of the deposited data

Results flagged for a closer look

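In 8 of 102 groups of 4 libraries 1 library stood apart from the other 3 by Dixon's criterion, where chance gives about 1 in 20. In normalised CPM these were Y VEH M1 for Col3a1 (2442), for Mmp3 (2063) and for C130026I21Rik (0.434, the others at 0), Y VEH F2 for Rspo1 (46.3), Y VEH F1 for Cxcl12 (374), O FIS F2 for H2-K1 (883) and B2m (948), and Y FIS F2 for S100a9 (3.73, the others at 0). Where the other 3 libraries are at 0 any UMI passes the criterion, so the flags of C130026I21Rik and S100a9 carry no weight.

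The change with age differed between the matrix fibroblasts and set A cells, by edgeR's test of the difference, for Efemp1 (1.67 on the log2 scale), Rspo1 (1.89), Ric3 (1.83), Ifi203 (1.05), Zfp462 (0.81), Dnm1 (0.69), Rasl11a (-1.17), Cdk6 (-1.48), Sntb1 (-2.10) and Mme (-2.37). Against set C cells it differed for Rspo1 (1.56), Efemp1 (1.03), Ebf2 (0.96), Negr1 (0.87), Dnm1 (0.80), Arhgap20 (0.71), Gm56906 (-0.71), Cpxm2 (-0.74, a gene of the rule and so no independent test), Prkg1 (-0.79) and Mme (-1.94), with Dpep1 (0.56) as the other call.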

How the results depend on the processing

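The number of RNAs called in O VEH against Y VEH (57) was 104 with DESeq2, 394 without a gene filter, 31 without the sex term, 35 with the replicate block, 27 after thinning to 2000 UMIs, 32 with only these 2 groups and 13 to 73 with 1 library left out. Old against young (307) gave 698 without a gene filter, 203 without the sex term, 528 with at least 2 genes of set B, 115 after thinning and 175 to 333 with 1 library left out. Male against female (166) gave 495 without a gene filter, 109 without the group term, 109 after thinning and 104 to 217 with 1 library left out. The fisetin comparisons, each at 0, gave 43 in old and 46 in young mice and 41 for their difference without a gene filter, and 1 in old mice with only those 2 groups. The difference in age change gave 358 against set A cells and 183 against set C cells without a gene filter, 17 against set C cells after thinning, and 4 to 27 and 5 to 14 with 1 library left out. Without the 2 libraries richest in Acta2, an alternative chosen after seeing the data, the counts were 35 (vehicle age), 274 (sex) and 5 (against set C cells). The cause of these shifts was not tested.

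Differences in the share among all cells changed sign in O VEH against Y VEH (0.0263 percentage points, -0.112 with at least 2 genes of set B, -0.129 to 0.339 with 1 library left out, negative without Y VEH F1, Y VEH F2 (-0.108), O VEH F1 (-0.0281) or O VEH F2 (-0.0968)), in O FIS against O VEH (-0.261 without O FIS M1 to 1.08 without O FIS F2), and in old against young (-0.133, from -0.608 without O FIS M1 to 0.0634) without Y FIS F2 (0.00122), Y FIS M2 (0.0185) or O FIS F2 (0.0634). The difference in the share of these cells among the general fibroblasts was 2.67 percentage points in Y FIS against Y VEH (-0.267 without Y FIS F2 to 5.66 without Y VEH M1) and 2.37 in O VEH against Y VEH (0.235 without Y VEH F2 to 5.36 without Y VEH M1). Tagln in old against young reversed, from -1.85 to 0.17 after thinning; neither value was called.

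Deviations of libraries from their group mean, in log2 CPM of the 2000 most abundant RNAs, were correlated between groups. Same-numbered libraries of 1 sex correlated at a median of 0.30 (-0.26 to 0.57, 21 pairs) and other pairs of that sex at 0.39 (-0.04 to 0.69). Same-numbered libraries were thus not more alike by this measure. It cannot decide whether the numbers pair the libraries, as the ranges overlap and sex was left in the deviations. The replicate block gave 240 calls with age and 131 with sex. With 75 cells in the smallest library, RNAs found in few cells were measured with the least precision.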
